A study of Mus musculus with 18 samples.

Results

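The genes described here are 10 that follicular cells of the thyroid use to make hormone: Tg, Tshr, Slc5a5, Slc26a4, Slc26a7, Duox2, Iyd, Dio1, Pax8 and Nkx2-1. Every probe that carries one of these symbols on the Illumina MouseRef-8 array was taken and kept apart, which gave 15 probes among the 25697 measured. Tshr, Slc26a7, Dio1, Pax8 and Nkx2-1 have 2 probes each, and the other genes have 1.

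The study asked how mouse thyroid responds to 211At, an alpha-emitting halogen that the thyroid takes up. The animals were 21 female mice of the BALB/c nude strain, 6 months of age. An activity of 0.064 kBq gave the thyroid 0.05 Gy, 0.64 kBq gave 0.5 Gy, 1.8 kBq gave 1.4 Gy, 14 kBq gave 11.2 Gy and 42 kBq gave 32.4 Gy, all by the intravenous route, and thyroids were taken 24 h later. Controls (0 Gy) were of the same strain, sex and age and were handled with an empty syringe. The thyroids of a group were pooled and the RNA of each pool was run on 3 arrays, 18 in all, so that all errors and p-values below measure the spread between arrays of 1 pool and not between mice.

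Thyroid follicular cells take up iodide from blood, pass it to the lumen of the follicle and bind it, with hydrogen peroxide, to tyrosines of thyroglobulin, from which thyroid hormones are then released. The pituitary hormone TSH drives these steps through its receptor, and a small set of transcription factors keeps the genes on. Thyroglobulin is normally among the most abundant transcripts of the gland, so its probe serves as the first check of the tissue label.

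That check went against the label. On the scale used throughout, the fluorescence signal after joint quantile normalization of all arrays, a probe was called detected on an array when its deposited detection p, which Illumina arrays take against negative control probes, was under 0.01. Tg, Slc5a5, Slc26a4, Slc26a7, Duox2, Dio1, Pax8 and Nkx2-1, 8 of the 10 genes and 12 of the 15 probes (80.0%), were detected on 0 of 18 arrays, against 46.5% of all probes. Iyd was detected on 1 array. Tshr was the only member detected on all 3 arrays of a group, which 42.5% of all probes were. In the detection p-values that accompany the normalized table, 11 probes remained undetected on all arrays, the exception being Slc26a4 on 1 array of 32.4 Gy. The data therefore show no signal above background for most genes that define follicular cells, in the controls as in the irradiated groups. No array of the series detected Tg, so whether its probe measures the transcript could not be checked here.

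**Figure D1:**
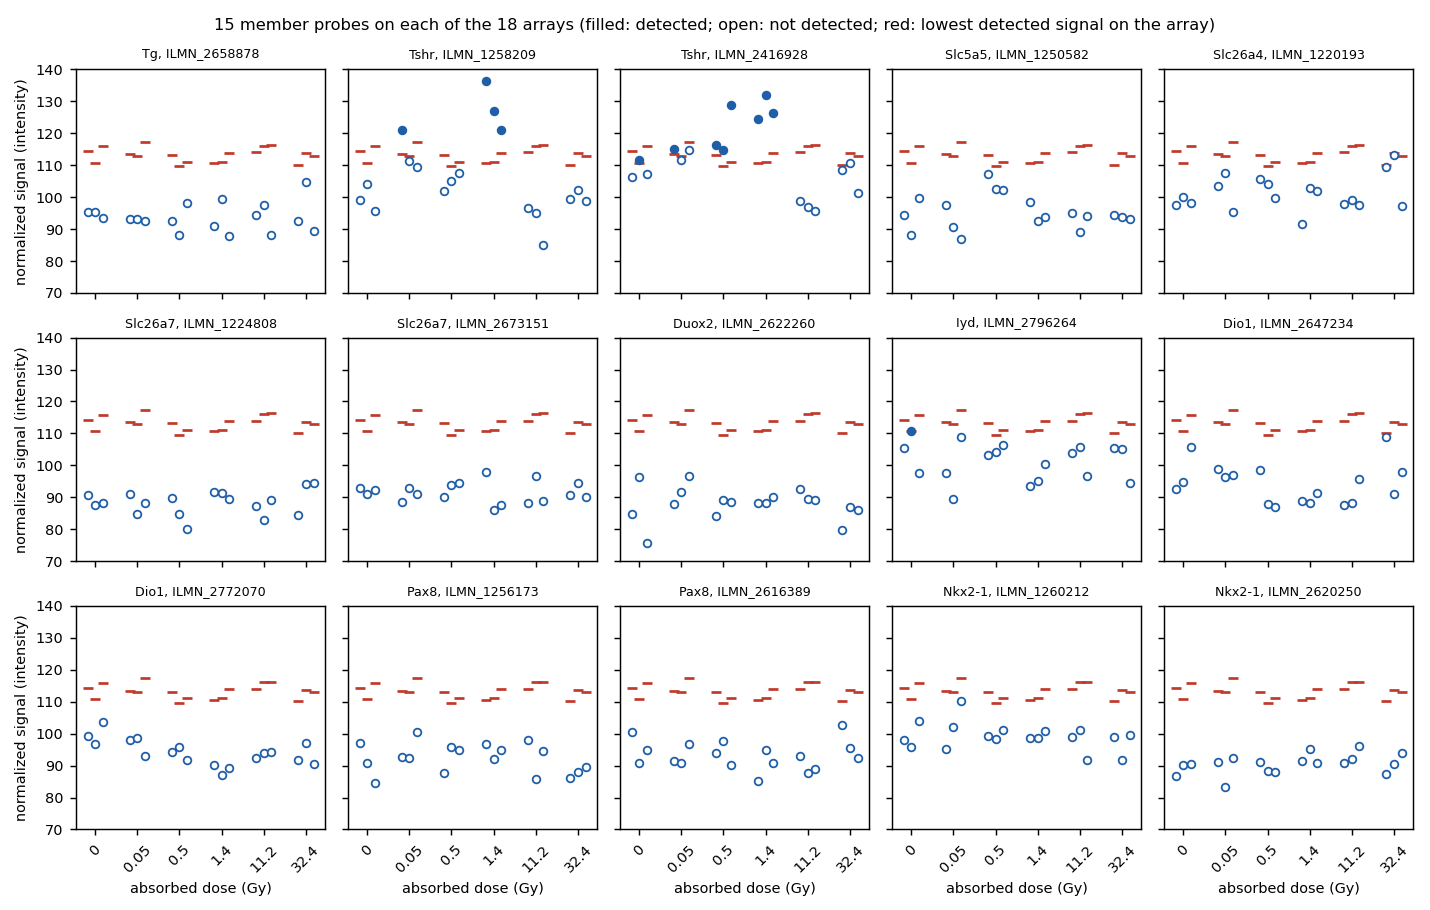
Normalized signal (intensity, linear axis from 70 to 140) of the 15 probes on each array, by absorbed dose. Filled points are detected arrays, open points are not detected, and red ticks mark the lowest signal of any detected probe on that array. Filled points occur in the panels of both Tshr probes and, once, of Iyd.

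Thyroglobulin, the precursor protein of the hormones, was measured by probe ILMN_2658878. Its signals were 95.2, 95.4 and 93.3 at 0 Gy, 93.2, 93.1 and 92.4 after 0.05 Gy, and 92.4, 88.3 and 98.3 after 0.5 Gy. At the higher doses they were 90.9, 99.5 and 87.9 after 1.4 Gy, 94.5, 97.4 and 88.1 after 11.2 Gy, and 92.5, 104.8 and 89.3 after 32.4 Gy. The groups overlapped, except that the 3 arrays of 0.05 Gy lay just below the 3 of 0 Gy, and every value lay below the lowest detected signal of its array, which ranged from 109.6 to 117.4 over the 18 arrays. The lowest detection p of Tg on any array was 0.0589 and its median was 0.556. Log2 ratios to 0 Gy ran from -0.03 to 0.01, and the test over all 6 groups gave an adjusted p of 0.992 (limma's F test).

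The iodide transporters were likewise at background. Slc5a5 (ILMN_1250582), the sodium/iodide symporter that carries iodide into the cell, averaged 94.1 ± 5.7 at 0 Gy, 91.8 ± 5.4 after 0.05 Gy, 104.0 ± 2.8 after 0.5 Gy, 94.9 ± 3.2 after 1.4 Gy, 92.9 ± 3.2 after 11.2 Gy and 93.8 ± 0.52 after 32.4 Gy (SD, n = 3 each). The 3 arrays of 0.5 Gy, at 107.3, 102.5 and 102.3, lay above the 3 of 0 Gy, at 94.4, 88.2 and 99.6, but none was detected and the log2 ratio of 0.15 ± 0.060 (SE) had an adjusted p of 0.0792 (limma). Slc26a4 (ILMN_1220193), which encodes pendrin, an anion exchanger of the apical membrane, ranged from 91.6 to 113.2 with a median of 99.9. Its highest value was on the second array of 32.4 Gy, where the detection p was 0.01003 in the non-normalized table and 0.00754 in the normalized one. Slc26a7, another anion transporter of the follicular cell, ranged from 80.1 to 94.4 on probe ILMN_1224808 and from 85.9 to 98.1 on probe ILMN_2673151. The lowest detection p of the Slc26a7 probes was 0.445 and 0.226, in that order.

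The enzymes that handle peroxide and iodide gave the same picture. Duox2 (ILMN_2622260), the oxidase that supplies hydrogen peroxide at the apical membrane, ranged from 75.6 to 96.8, with its lowest and one of its highest values both among the 3 control arrays (84.7, 96.2 and 75.6). Iyd (ILMN_2796264), the deiodinase that recovers iodide from unused iodotyrosines, averaged 104.6 ± 6.6 at 0 Gy, 98.7 ± 9.7 after 0.05 Gy, 104.7 ± 1.6 after 0.5 Gy, 96.4 ± 3.7 after 1.4 Gy, 102.1 ± 4.8 after 11.2 Gy and 101.6 ± 6.1 after 32.4 Gy (SD, n = 3 each). Its 1 detected array was the second of 0 Gy, at 110.8 with a detection p of 0.00877. The detection threshold passes 1% of background measurements by construction. Among the 234 values of the 13 probes other than Tshr this was the 1 detected.

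Dio1, the type I deiodinase that turns thyroxine into the active hormone, was measured by 2 probes. ILMN_2647234 ranged from 86.9 to 108.9 and was never detected, its lowest detection p being 0.01253. ILMN_2772070 read 90.3, 87.2 and 89.4 after 1.4 Gy, against 99.2, 96.8 and 103.5 at 0 Gy, and the groups did not overlap. The log2 ratio of -0.17 ± 0.055 (SE) had an unadjusted p of 0.00516 and an adjusted p of 0.0388 (limma), past neither threshold of a call. Both groups were below detection, so no fold is given. The other Dio1 probe had a ratio of -0.12 there, with a 95% interval from -0.26 to 0.02.

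Pax8 and Nkx2-1 are the transcription factors that, together, set the thyroid follicular program. The Pax8 probes ranged from 84.6 to 100.5 (ILMN_1256173) and from 85.2 to 102.9 (ILMN_2616389). Those of Nkx2-1 ranged from 91.6 to 110.1 (ILMN_1260212) and from 83.3 to 96.1 (ILMN_2620250). Their lowest detection p was 0.0276, on 1 array of 0.05 Gy for the first Nkx2-1 probe. No F test over the groups passed for any of the 4 probes, with adjusted p-values of 0.716 and 0.671 for Pax8 and of 0.905 and 0.885 for Nkx2-1 (limma).

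Tshr encodes the receptor for TSH, a G protein-coupled receptor on the basal membrane of follicular cells that is also expressed by fat cells. Probe ILMN_1258209 gave 99.2, 104.1 and 95.7 at 0 Gy, 121.0, 111.3 and 109.4 after 0.05 Gy, and 102.1, 104.9 and 107.5 after 0.5 Gy. It gave 136.5, 127.1 and 121.0 after 1.4 Gy, 96.5, 95.1 and 85.1 after 11.2 Gy, and 99.4, 102.3 and 98.9 after 32.4 Gy. The 1.4 Gy group had the highest mean, overlapped the 0.05 Gy group at 121.0 and lay above all arrays of the others. It was the only group detected on 3 of 3 arrays. 1 array of 0.05 Gy was also detected, and the other groups were not. With means of 128.2 ± 7.8 after 1.4 Gy and 99.7 ± 4.2 at 0 Gy (SD, n = 3 each), the log2 ratio was 0.36 ± 0.063 (SE), with an adjusted p of 9.50e-05 (limma).

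Probe ILMN_2416928 of Tshr gave 106.2, 111.5 and 107.4 at 0 Gy, 115.2, 111.6 and 114.9 after 0.05 Gy, and 116.4, 114.8 and 128.7 after 0.5 Gy. It gave 124.5, 131.9 and 126.4 after 1.4 Gy, 98.9, 96.8 and 95.6 after 11.2 Gy, and 108.4, 110.6 and 101.3 after 32.4 Gy. All arrays of 0.5 and 1.4 Gy were detected, as were 1 array of 0.05 Gy and 1 of 0 Gy, and none of 11.2 and 32.4 Gy. The 1.4 Gy arrays lay above all controls, and the 11.2 Gy arrays lay below them. The log2 ratio of 1.4 Gy to 0 Gy was 0.24 ± 0.058 (SE), with an adjusted p of 0.00441 (limma), and that of 11.2 Gy to 0 Gy was -0.16 with an adjusted p of 0.0644.

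Neither probe of Tshr reached 1.5-fold against 0 Gy, so neither was called, although both passed the adjusted p alone after 1.4 Gy, as 9.88% of all probes did. For ILMN_2416928 this did not hold without array 1 or 3 of 0 Gy or without array 2 or 3 of 1.4 Gy, where its adjusted p reached up to 0.0302, nor with scaling to the 75th percentile (0.112). For ILMN_1258209 it held without each array in turn, with at most 0.0019. For ILMN_1258209, which was not detected at 0 Gy, the level after 1.4 Gy was at least 1.13-fold higher. This bound sets the mean after 1.4 Gy against the lowest detected signal of each control array, or the probe's own where that is higher. Signals so close to background are compressed. With the background estimated and removed (the neqc method), the log2 ratios after 1.4 Gy became 1.07 and 0.71, with adjusted p-values of 1.34e-05 and 0.000653, and both probes were called there, against 5.23% of all probes under that method. The study's pooled tissue does not tell fewer cells of a type from less RNA per cell.

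**Figure D2:**
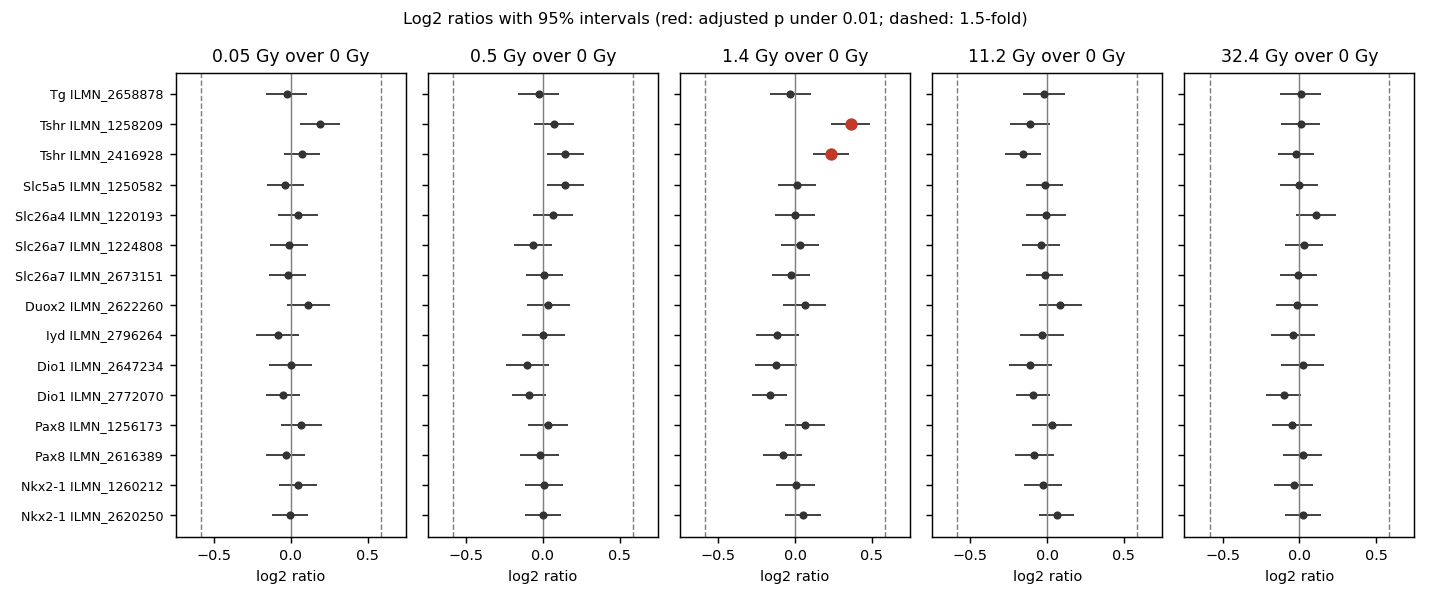
Log2 ratio of each of the 15 probes at each dose to 0 Gy (x axis), with 95% intervals from limma. Red points passed an adjusted p of 0.01, which were the Tshr probes after 1.4 Gy (0.36 and 0.24). Dashed lines mark 1.5-fold in either direction, which no point reached.

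Between the irradiated groups, Tshr was lower after 11.2 Gy than after 1.4 Gy by both probes, with log2 differences of -0.47 (adjusted p = 7.50e-07) and -0.39 (adjusted p = 3.93e-06, limma). It was also lower after 32.4 Gy than after 1.4 Gy, by -0.35 (adjusted p = 0.000102) and -0.26 (adjusted p = 0.00157). Since neither probe was detected after 11.2 or 32.4 Gy, these differences are only bounds. Computed as above, Tshr was at least 1.11-fold lower after 11.2 Gy than after 1.4 Gy by either probe, and at least 1.14-fold lower after 32.4 Gy. None of these reached 1.5-fold, whereas 5.25% of all probes were called for 11.2 Gy against 1.4 Gy and 3.03% for 32.4 Gy against 1.4 Gy. In the order of group means of ILMN_1258209, from 11.2 Gy over 0, 32.4, 0.5 and 0.05 Gy up to 1.4 Gy, no neighbours differed at an adjusted p under 0.01, the lowest being 0.0482 for 1.4 Gy against 0.05 Gy. In that of ILMN_2416928, from 11.2 Gy over 32.4, 0, 0.05 and 0.5 Gy up to 1.4 Gy, the same held, with 0.216 as the lowest. Over the 18 arrays the log2 signals of the Tshr probes correlated at r = 0.83, a description of values that share arrays and RNA pools.

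Across the set, 0 of 15 probes were called against 0 Gy at any of the 5 doses, where a call is an adjusted p under 0.01 in limma and at least 1.5-fold. Of the 75 ratios, 7 had an unadjusted p under 0.05, of which 5 were of Tshr. With neqc 2 were called, as given above, and with the deposited normalized values 0. Among all probes, 4.75% were called after 0.05 Gy, 7.54% after 0.5 Gy, 2.41% after 1.4 Gy, 2.78% after 11.2 Gy and 2.07% after 32.4 Gy. At the highest of these shares only about 1 of 15 probes would be called, so the count alone does not set the genes apart. For the 13 probes other than Tshr, the 65 ratios to 0 Gy lay between -0.17 and 0.15, their 95% intervals between -0.28 and 0.27, and 2 had an unadjusted p under 0.05. The median log2 ratio of the 15 probes was 0.00 after 0.05 Gy, 0.01 after 0.5 Gy, 0.00 after 1.4 Gy, -0.03 after 11.2 Gy and 0.00 after 32.4 Gy, beside -0.01, -0.01, 0.00, -0.01 and -0.01 for all probes at those doses. For probes at background these narrow intervals describe the signal and do not limit a change in transcript that lies below detection. Since no member was detected on all 18 arrays, no gene of like pattern was sought.

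A second list held 24 other genes of thyroid function with a probe, each gene taken by its brightest probe. Foxe1, Glis3, Cdh16, Kcne2, Clcn5, Lrp2 and Dio2 were detected on 0 of 18 arrays. They include a transcription factor that works with Pax8 and Nkx2-1 (Foxe1), a cadherin (Cdh16) and the type II deiodinase (Dio2). Between 12 and 16 of the 24 genes were detected on all 3 arrays of a group. Many of those detected are expressed in most tissues, such as the cathepsin Ctsb, which digests thyroglobulin in the thyroid and other proteins elsewhere, and the G protein subunit Gnaq. Hhex, another transcription factor of the list, was detected on all 18 arrays, with signals from 121.5 to 153.5.

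Of the 24 genes, 3 were called higher and 1 lower after 0.05 Gy, 4 higher and 2 lower after 0.5 Gy, 0 higher and 3 lower after 1.4 Gy, and 3 higher and 0 lower at each of 11.2 and 32.4 Gy. The shares of all probes called were 4.75%, 7.54%, 2.41%, 2.78% and 2.07%, in order of dose. The list took each gene's brightest probe and was chosen with earlier results known, so these shares are not a like background. The median log2 ratios of the list were 0.00, 0.02, 0.01, 0.03 and 0.06 at the 5 doses from low to high. Those of all probes were -0.01, -0.01, 0.00, -0.01 and -0.01. Genes called higher were Slc5a8, Cdh1, Asgr1 and, after 0.5 Gy, Cftr. Those called lower were Pde4d after 0.05 and 0.5 Gy, Gnas after 0.5 Gy alone, and Slc5a8, Cdh1 and Ano1 after 1.4 Gy.

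Slc5a8, a monocarboxylate transporter once described as an apical iodide transporter, averaged 296 ± 15 at 0 Gy, 887 ± 72 after 0.05 Gy, 858 ± 76 after 0.5 Gy, 125 ± 2.9 after 1.4 Gy, 691 ± 26 after 11.2 Gy and 546 ± 30 after 32.4 Gy (SD, n = 3 each) on probe ILMN_2739384. No irradiated array overlapped the controls, and 1.4 Gy was the only dose that lay below them. Its log2 ratios were 1.58, 1.53, -1.24, 1.23 and 0.89 in order of dose, with adjusted p-values of at most 6.65e-11 (limma). The other Slc5a8 probe, ILMN_1241067, was detected on 0 of 18 arrays.

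Cdh1, the epithelial cadherin, had the same signs, with log2 ratios of 1.59, 1.71, -0.64, 1.39 and 0.77 in order of dose. Asgr1, a receptor for desialylated glycoproteins that can bind thyroglobulin, was not detected at 0 Gy (109.4, 104.0 and 97.6) nor after 1.4 Gy (105.5, 101.3 and 101.8), and was detected on every other array. It was at least 2.34-fold higher after 0.05 Gy, 2.23-fold after 0.5 Gy, 2.31-fold after 11.2 Gy and 2.20-fold after 32.4 Gy than at 0 Gy. Cftr, a chloride channel, rose by 0.90 on the log2 scale after 0.5 Gy.

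In the opposite direction, Pde4d, which degrades cyclic AMP, averaged 165 ± 12 after 0.05 Gy and 150 ± 13 after 0.5 Gy, against 267 ± 17 at 0 Gy (SD, n = 3 each). Its log2 ratios were -0.69 and -0.83. Gnas, the G protein subunit that couples the TSH receptor to adenylate cyclase, had a ratio of -0.59 after 0.5 Gy, just past 1.5-fold. This was its brightest probe, ILMN_2632206. Probe ILMN_1223437 of Gnas was also detected on all 18 arrays, and its ratio is not given. Ano1, a chloride channel, had -0.85 after 1.4 Gy.

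Marker genes of other tissues were detected throughout. All 6 markers of skeletal muscle and all 5 of brown fat were detected on every array, as were 4 or 5 of the 5 markers of white fat in each group. Of the 7 salivary markers of the submandibular gland with a probe, 5 were detected on 3 of 3 arrays at 0 Gy and 7 in each irradiated group, and of the 5 of the parotid gland, all 5 were at 0 Gy and between 2 and 4 in the irradiated groups. Of the neighbours that a dissected thyroid holds, the parathyroid markers Pth and Casr were detected on 3 of 3 arrays in no group, and of 4 C cell markers only Ret was, at every dose other than 0 and 1.4 Gy. Markers of T cells and cartilage were detected on 3 of 3 arrays in no group, and 1 of 3 airway markers was, in the 0.5 Gy group alone. All 3 erythrocyte and both macrophage markers with a probe, 3 of 4 fibroblast markers and 3 or 4 of 5 endothelial markers were detected in each group.

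**Figure D3:**
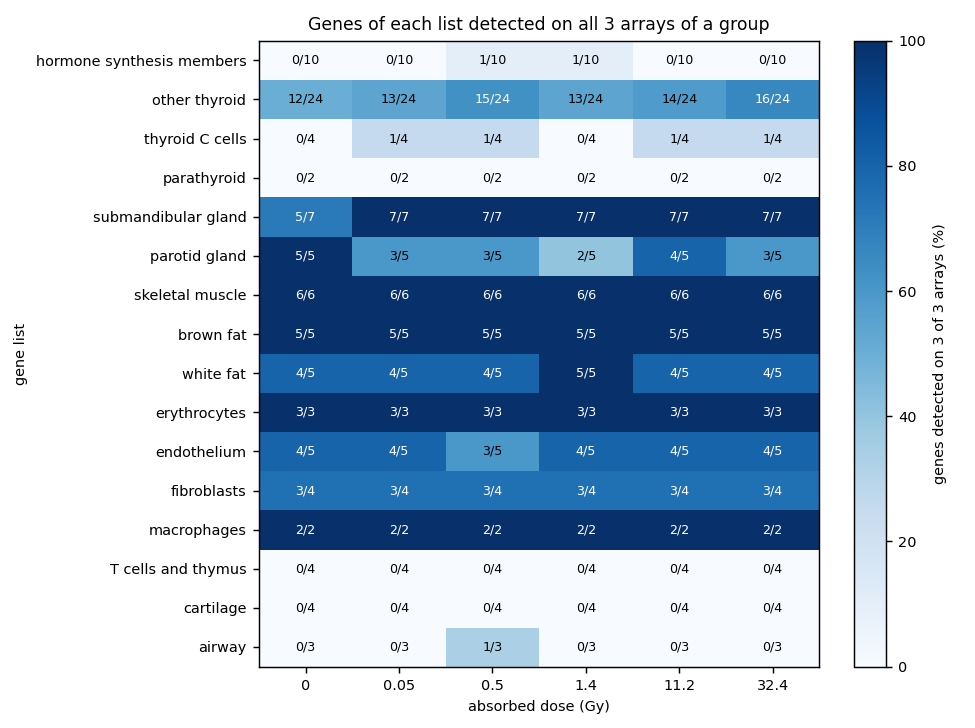
Share of genes detected on all 3 arrays of a group (colour, in percent, with the counts printed), for the hormone synthesis genes and each other list (rows) by absorbed dose (columns). The hormone synthesis genes show 0 or 1 of 10 in every group, whereas skeletal muscle shows 6 of 6.

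The summed signals of the salivary and skeletal muscle lists differed between the groups and are given beside the other thyroid genes that changed. The summed signal of the 7 submandibular markers ranged from 19081 to 21802 at 0 Gy, from 149771 to 156521 after 0.05 Gy, from 151023 to 158611 after 0.5 Gy, from 57515 to 59382 after 1.4 Gy, from 147289 to 153953 after 11.2 Gy and from 126728 to 129711 after 32.4 Gy. The 4 doses where Slc5a8, Cdh1 and Asgr1 were higher than at 0 Gy are those where this sum was highest. The summed signal of the 6 skeletal muscle markers was highest at the same 4 doses, between 6263 (11.2 Gy) and 14287 (32.4 Gy). It ranged from 1378 to 1403 at 0 Gy and from 3170 to 3251 after 1.4 Gy. After 1.4 Gy, both sums thus lay above those of 0 Gy. Slc5a8 and Cdh1, however, were lower there than at 0 Gy, and Asgr1 was not detected. The 5 parotid markers summed to between 101700 and 113583 at 0 Gy, and to between 1702 and 27094 at the 5 doses. The part of these tissues in the values of Slc5a8, Cdh1, Asgr1 and Cftr was not tested.

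White fat markers are set beside Tshr because fat cells express it too. Their sum ranged from 12931 to 13297 at 0 Gy, from 13655 to 17120 after 0.05 Gy, from 18586 to 19279 after 0.5 Gy, from 30248 to 31304 after 1.4 Gy, from 9618 to 10980 after 11.2 Gy and from 13318 to 14134 after 32.4 Gy. It was highest after 1.4 Gy and lowest after 11.2 Gy, as were both Tshr probes. The sum is weighted to the brightest markers. Median log2 ratios of the 5 markers were -0.07, -0.26, 0.77, -0.42 and -0.08 in order of dose. After 0.05 and 0.5 Gy the sum thus lay above 0 Gy while the median ratio lay below 0. After 0.5 Gy, 1 marker was called higher and 1 lower. Of the 5 markers, 3 were called higher after 1.4 Gy against 0 Gy: Adipoq, the hormone adiponectin (log2 ratio 0.77), Car3, a carbonic anhydrase abundant in fat cells and muscle (1.62), and Lep, the hormone leptin (0.77). Plin1, a coat protein of lipid droplets, had a ratio of -0.02, and Fabp4 had 0.26 with neither called. After 11.2 Gy, Lep was called lower (-1.40). Other lists were also high after 1.4 Gy. Brown fat markers summed to between 41055 and 44064 after 1.4 Gy, against 37115 to 38797 at 0 Gy, and macrophage markers to between 2011 and 2203 after 1.4 Gy, against 1614 to 1750 at 0 Gy. Fibroblast markers summed to between 8211 and 8823 after 1.4 Gy, against 5453 to 5847 at 0 Gy. After 0.5 Gy, where ILMN_2416928 of Tshr was detected on 3 of 3 arrays, the brown fat sum of 12271 to 13977 was the lowest of all groups. The part of these tissues in the Tshr values was not tested.

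**Figure D4:**
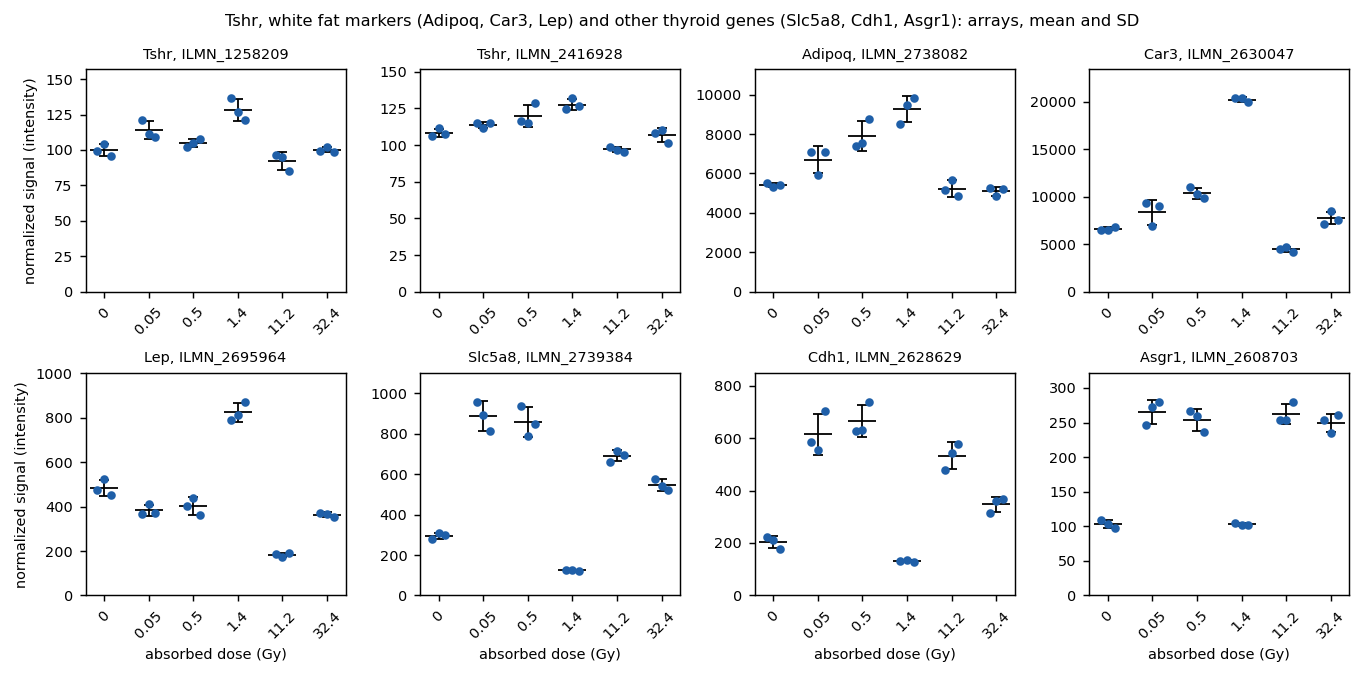
Normalized signal (intensity, axes start at 0 and differ between panels) of both Tshr probes, 3 white fat markers (Adipoq, Car3, Lep) and 3 other thyroid genes (Slc5a8, Cdh1, Asgr1) by absorbed dose. Points are arrays, and bars are the mean and SD of 3 arrays. The means of Tshr, Adipoq, Car3 and Lep are highest after 1.4 Gy, where Slc5a8 and Cdh1 are lowest. The 3 white fat markers shown are those of the 5 that were called higher after 1.4 Gy. Plin1 and Fabp4, which were called in neither direction there, are not shown.

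The depth of the arrays was alike, with between 9737 and 10995 probes detected per array and median non-normalized signals of 86.3 to 115.3. Their precision is limited by 3 arrays per group, and the standard errors of the member ratios ran from 0.055 to 0.069 on the log2 scale.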

How the data were processed

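RNA of 6 thyroid pools was hybridised to Illumina MouseRef-8 arrays, 3 per pool. The authors scanned them with BeadScan and used the BioArray Software Environment for preprocessing and quantile normalization. One deposited table holds fluorescence intensity before that step and another after it, and both come with deposited detection p-values. Whether background was subtracted is not given in the sources used here. In the normalized values, 6 arrays (0.05 and 0.5 Gy) share one distribution and 12 another, which lies 0.46 higher at the upper quartile (log2), so they were used as an alternative only.

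The non-normalized intensity of 25697 probes (815 control probes left out) was taken to log2 and quantile-normalized over all 18 arrays. A mean per group was fitted with limma 3.58.1 under R 4.3.3, each dose compared with 0 Gy and each pair of doses with each other, with Benjamini-Hochberg adjustment over all probes. Calls needed an adjusted p under 0.01 and 1.5-fold. Adjusted p-values in the text are from limma, and F tests cover all groups. Means and SD are of linear signals. Plots used matplotlib 3.10.9 (Python 3.11.15). Scripts were tested on simulated data. Gene symbols came from the platform annotation (23978 probes with 1 symbol, 1719 with none).

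The members, gene lists and tests were chosen with earlier results of these data known. All member probes are reported. For the other thyroid genes, counts, medians and genes called against 0 Gy are given. For the marker lists, detection counts and some summed signals are given, with medians for white fat alone. Their calls are given for white fat alone, and not at every dose. Other marker lists also held calls against 0 Gy. All 6 skeletal muscle markers were called higher after 0.05 Gy, and all 5 brown fat markers lower after 0.5 Gy. Alternatives were the deposited normalized values, neqc background correction, scaling to the 75th percentile, a detection filter, fits of 1 dose with 0 Gy, leaving out each array, a replicate block and no fold minimum. The replicate numbers name arrays of a pool and do not pair them. No genome build is given, and no coordinates are printed. Lists of C cell, parathyroid, submandibular, parotid, muscle, brown fat, white fat, erythrocyte, endothelium, fibroblast, macrophage, T cell, cartilage and airway markers were counted by detection.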

Additional observations from a re-analysis of the deposited data

Results flagged for a closer look

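Tshr differed between irradiated groups at an adjusted p under 0.01 (limma) in 8 tests of the difference itself, 4 by each probe. Every pair of irradiated groups was tested for both probes. The share of all probes that passed the adjusted p alone in these pairs is not given, so the count does not set Tshr apart. By probe ILMN_1258209 it was lower at 11.2 Gy than at 0.05 Gy (log2 difference -0.30) and than at 1.4 Gy (-0.47), lower at 32.4 Gy than at 1.4 Gy (-0.35), and higher at 1.4 Gy than at 0.5 Gy (0.29). By probe ILMN_2416928 it was lower at 11.2 Gy than at 0.05 Gy (-0.23), than at 0.5 Gy (-0.30) and than at 1.4 Gy (-0.39), and lower at 32.4 Gy than at 1.4 Gy (-0.26). None reached 1.5-fold, and in each of these pairs the lower group had 0 of 3 arrays detected, so that the differences are only bounds. The other 13 probes gave 130 such differences, from -0.16 to 0.18, with 0.0554 as the lowest adjusted p. Groups of 3 arrays are too small to test for a single outlying array.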

How the results depend on the processing

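Calls needed an adjusted p under 0.01 and 1.5-fold. No member probe was called after joint normalization, and none was called with any 1 of the 18 arrays left out, in which case the counts over all probes were 1203 to 1288 at 0.05 Gy, 1929 to 1956 at 0.5 Gy, 616 to 662 at 1.4 Gy, 704 to 756 at 11.2 Gy and 511 to 547 at 32.4 Gy. With neqc, 2 member probes (Tshr) were called higher at 1.4 Gy. Between doses it called 2 lower at 11.2 against 0.05 Gy, 1 higher at 1.4 against 0.5 Gy, 1 lower at 11.2 against 0.5 Gy, and 2 lower at both 11.2 and 32.4 against 1.4 Gy. Counts of all probes between doses are given neither for neqc nor for the deposited values. Member calls between doses under these 2 alternatives therefore have no background beside them. Against 0 Gy, neqc called 2546, 3592, 1345, 1588 and 1150 of all probes in order of dose, and 5 other thyroid genes at each of 11.2 and 32.4 Gy. With the deposited values, 2 Tshr probes were called lower at 11.2 against 1.4 Gy and, across the separately normalized sets, 1 (ILMN_1258209) higher at 1.4 against 0.5 Gy (log2 0.64), 4300 and 4313 of all probes at 0.05 and 0.5 Gy (268 and 383 higher, 4032 and 3930 lower, against 666 and 940 higher, 555 and 998 lower after joint normalization), and 7 other thyroid genes at 0.05 Gy. There the median of all probes lay at -0.19 at 0.05 Gy and at 0.5 Gy, and that of the member probes at -0.15 and -0.14. With no fold minimum, 2 member probes passed at 1.4 Gy, 4103, 5063, 2538, 3016 and 2099 of all probes in order of dose, and 7, 11, 5, 9 and 8 other thyroid genes. Scaling to the 75th percentile called 5 other thyroid genes at 1.4 Gy, and 759 of all probes. The causes were not tested. With the replicate block, 1223, 1940, 621, 717 and 531 of all probes were called and 0 member probes, and it changed no call of a member. Same-numbered arrays correlated at -0.04 to 0.30 in their deviations, others at -0.31 to 0.18. Of 835 alternative values of the 75 member ratios, 715 kept their sign and side of the threshold, 118 turned sign with neither side called, and 2 (Tshr, neqc) became called. One that turned was Tshr ILMN_2416928 at 0.5 Gy, with 0.15 after joint normalization and -0.05 with the deposited values. The adjusted p of Tshr ILMN_2416928 at 1.4 Gy was 0.112 with 75th-percentile scaling, and without each array its ratio was 0.21 to 0.26 and that of ILMN_1258209 was 0.32 to 0.40. A BeadChip block was not run, since the headers name no chip. Detection limits what the 13 other probes can show.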
